A study of Mus musculus with 38 samples.

Results

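The chemokine ligand genes were followed across mouse microglial, glioma and macrophage cultures kept in normoxia or hypoxia. Members were all genes whose symbol starts with Ccl, Cxcl, Cx3cl or Xcl and a number, without pseudogenes, which gave 37 of the 55487 genes in each count table. They comprise 23 CC, 12 CXC, 1 CX3C and 1 XC ligand genes. Of the 37, 12 lie on chromosome 11 and 10 on chromosome 5 (mm10). Values are given below for the 23 members that passed a test or reached a mean of 5 CPM, counts scaled to library size, in at least 1 group. The other 14 stayed at or below a mean of 0.825 CPM in every group.

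The study compared 3 kinds of mouse cell in 38 RNA sequencing libraries that fall into 18 groups, 16 of them with 2 libraries and 2 with 3. BV2 is an immortalised microglial line, GL261 is a glioma line, and BMDM are macrophages grown from bone marrow. Cells were kept for 16 h in normoxia (21% oxygen) or hypoxia (below 0.1% oxygen). In the first experiment each cell type grew alone or in direct contact with another: BV2 with GL261 at 1 BV2 cell to 2 GL261 cells in 2% serum, and BMDM with GL261 at 1 to 1 in 10% serum. From the first pair both cell types were sequenced, and from the second the BMDM were analysed. In the second experiment BV2 or BMDM alone received the solvent DMSO in normoxia, DMSO in hypoxia, or, in hypoxia, panobinostat at 10 nM, which blocks histone deacetylases. There BV2 were kept in 2% serum and BMDM in 10% serum. For the monocultures of the first experiment no serum level is given in the sources used here. Panobinostat was not given in normoxia, and no genotype or allele is named for any group. All groups were fixed with 3% glyoxal, and how co-cultured cells were separated is not given in the sources used here. The labels call the replicates biological for the BV2 and GL261 table of the first experiment. Elsewhere nothing says that replicates came from separate cultures or animals, so p-values there measure the spread between these libraries, which may be technical.

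Chemokines are small secreted proteins that guide the movement of leukocytes through G protein-coupled receptors. Their families are named by the spacing of conserved cysteines, and many CC ligands, such as Ccl2 and Ccl3, attract monocytes and macrophages, whereas CXC ligands of the Cxcl1 to Cxcl3 kind attract neutrophils through Cxcr2. Many of these genes are rapidly induced through NF-kB, and Cxcl9 and Cxcl10, ligands of Cxcr3 on T and NK cells, are also induced by interferons. In glioma, tumour cells, microglia and infiltrating macrophages are all known sources of chemokines.

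Levels are CPM scaled by the trimmed mean of M-values, and levels of different genes were compared per kilobase of exon. Each cell type of each count table was scaled separately, so levels set across tables or cell types carry no test themselves. Folds and carry-over levels between cell types rest on these separate scalings. The tests between cell types come from fits that scaled both together. Library totals ran from 9634700 to 27238900 counts, and 3 counts corresponded to 0.114 to 0.332 CPM, which was taken as the floor of detection. The edgeR quasi-likelihood test was fitted to all expressed genes, with Benjamini-Hochberg adjustment and a call at an adjusted p under 0.05. A log2 change is the fitted log2 ratio of the groups named, given with its standard error (SE). The summed level of 10 myeloid markers was 3400 to 3421 CPM in BV2 monocultures in normoxia, 8445 to 9379 CPM in BMDM and 8.15 to 10.4 CPM in GL261, so in these monocultures it was high in the microglial line and the macrophages and low in the glioma line. In the BMDM of the second experiment the myeloid sum was 6232 to 8404 CPM in normoxia with DMSO, below the sum of 5 fibroblast markers, so the markers do not bear out a label of macrophages alone. The fibroblast sum was 20140 to 24200 CPM there against 122 to 155 CPM in BMDM monocultures of the first experiment. Both co-cultured BMDM libraries of replicate number 2 stood apart in Cxcl3, and the ligand calls with hypoxia or contact are given with and without them. Medians and the calls of receptors, regulators and cytokines in co-cultured BMDM rest on all libraries and were not checked without these. Counts of Ccl27a may be split with near-identical copies, since 33.3% of its 75-base words also occur in other genes. Cxcl10, Cxcl16 and Ccl25 overlap an exon of a gene on the opposite strand (Art3, Zmynd15 and Elavl1), and the strand setting of the counting is not given in the sources used here. Cxcl2 shares 4.57% of its 75-base words with Cxcl3.

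The leading ligands differed in part between the cell types, with Ccl9 among them in both BV2 and BMDM. In BV2 monocultures in normoxia Ccl3 and Ccl9 dominated: Ccl3, a ligand of Ccr1, stood at 406 CPM per kilobase, and Ccl9, another Ccr1 ligand, at 170.5. Next came Ccl4, which attracts monocytes and T cells, at 15.1 and Ccl2, the main Ccr2 ligand, at 13.7 CPM per kilobase. Together Ccl9 (58.8%) and Ccl3 (35.2%) held most of the counts of all ligand genes in these cells. GL261 had low levels of every ligand in normoxia, led by Cxcl10 at 6.92, Ccl27a, a ligand of Ccr10 known from skin, at 2.86, and Ccl25, a ligand of Ccr9 known from gut and thymus, at 2.76 CPM per kilobase. BMDM in normoxia were led by Ccl9 at 152, Cxcl16, the membrane-bound ligand of Cxcr6, at 123, and Cxcl14, a homeostatic chemokine, at 95.8 CPM per kilobase. Ccl3 followed in BMDM at 59.6 and Ccl2 at 51.0 CPM per kilobase.

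**Figure D1:**
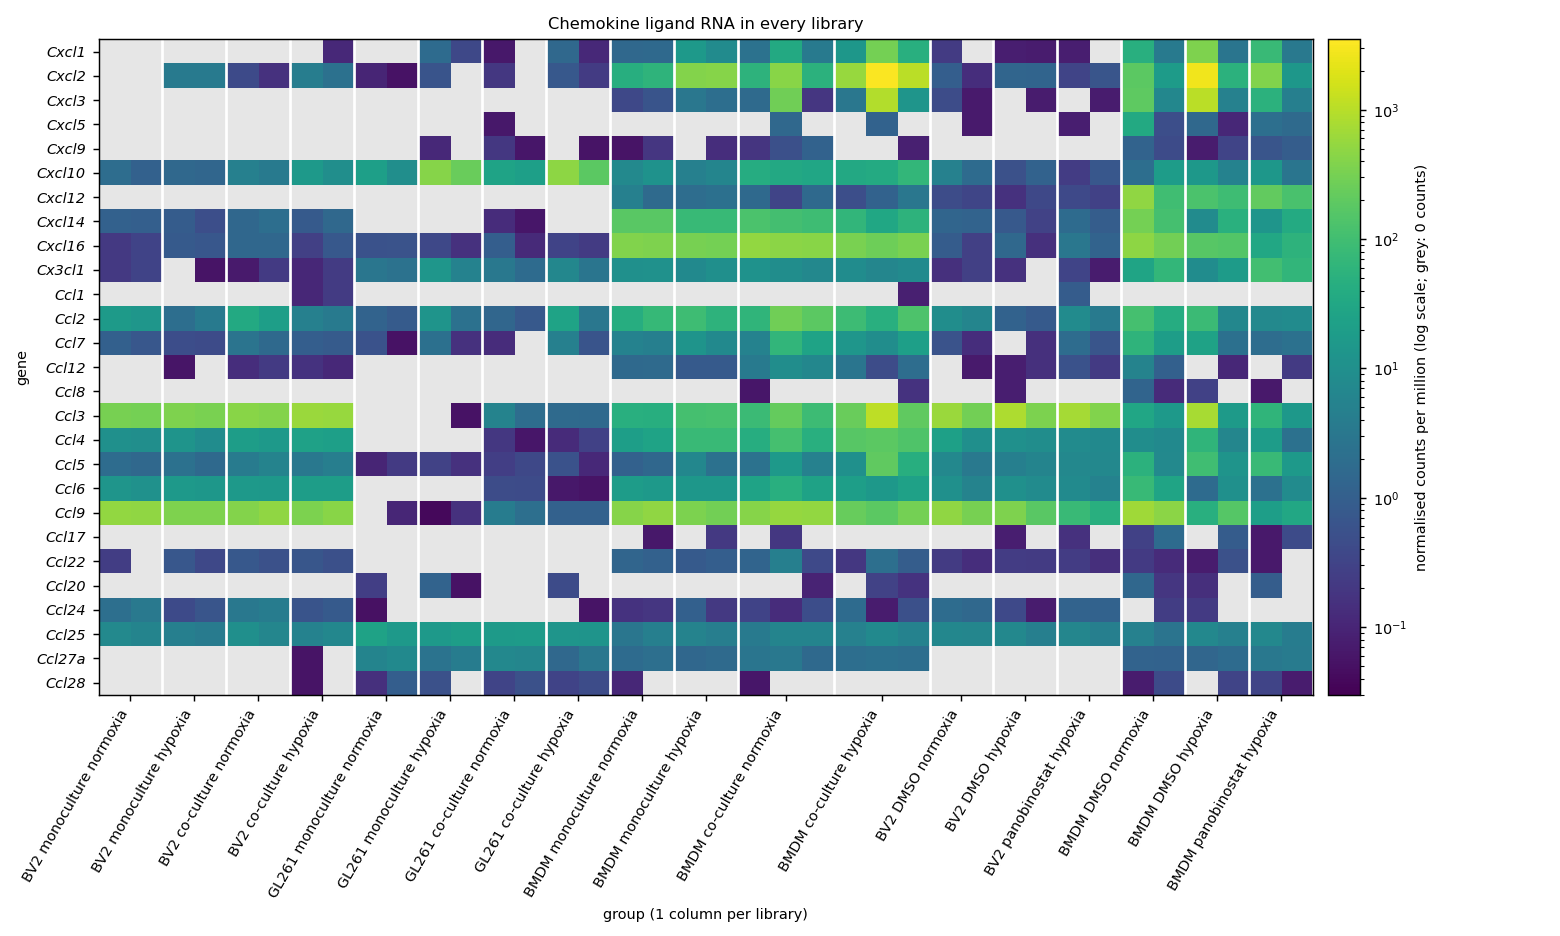
Heat map of the level of the 27 ligand genes with a group mean of at least 0.3 CPM (rows) in each library (columns, ordered by cell type and group), as CPM on a log colour scale. Ccl3 and Ccl9 are high in every BV2 library, Cxcl10 is high in hypoxic GL261, and Cxcl16 and Cxcl14 are higher in BMDM than in BV2. White lines part the groups, grey cells had 0 counts, and each cell type of each table was scaled separately.

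BV2 and GL261 shared 1 table and could be tested against each other. Of 17 ligand genes tested in normoxic monocultures, 8 were higher in BV2 and 4 higher in GL261, with 73.2% of all tested genes called. Ccl3 was at 313 and 309.9 CPM in BV2 and had no count in either GL261 library, which makes it at least 1988-fold higher in BV2 (edgeR adjusted p = 2.29e-14). Ccl4 (at least 63.8-fold higher) and Ccl6 (at least 77.0-fold higher), a Ccr1 ligand of mice, likewise had no count in GL261. Ccl9 had 2 counts in all in GL261, a ratio of 9957-fold with an exact 95% interval on counts of 2756 to 82220. The order was the other way for Ccl27a, which was at 5.93 and 7.68 CPM in GL261 and had no count in BV2 (at least 52.1-fold higher in GL261, edgeR adjusted p = 2.07e-08). Cxcl10 (BV2 minus GL261, log2 change -3.24, edgeR adjusted p = 2.00e-05), Cx3cl1, the membrane-bound ligand of the microglial receptor Cx3cr1 (log2 change -3.21, edgeR adjusted p = 0.000165), and Ccl25 (log2 change -1.52, edgeR adjusted p = 1.36e-05) were also higher in GL261.

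BV2 and BMDM shared the table of the second experiment, where 23 ligand genes were tested in normoxia with DMSO. Of these 2 were higher in BV2 and 15 higher in BMDM, with 44.2% of all tested genes called. Serum was 2% for BV2 and 10% for BMDM, so effects of serum and of cell type cannot be told apart here. Cxcl16 was at 0.893 and 0.278 CPM in BV2 and at 489 and 294 CPM in BMDM, so the groups lay far apart (log2 difference -9.55 ± 0.90 SE, edgeR adjusted p = 3.33e-05). Cxcl14 (log2 change -7.50, edgeR adjusted p = 0.000320), Cx3cl1 (log2 change -7.93, edgeR adjusted p = 5.71e-05) and Cxcl12, the ligand of Cxcr4 that stromal cells make (log2 change -9.71, edgeR adjusted p = 3.16e-05), differed by similarly large log2 values. Cxcl12 was at 503 and 99.4 CPM in these BMDM and at 4.92 and 1.70 CPM in BMDM monocultures of the first experiment. The fibroblast markers were high in the same BMDM libraries, as given above, and their part in these differences was not tested. Ccl3 was higher in BV2 (log2 change 4.14, edgeR adjusted p = 0.0324), but the call was lost without any 1 of the 4 libraries. Ccl24, a ligand of Ccr3 on eosinophils, was also higher in BV2 (log2 change 3.41, edgeR adjusted p = 0.0290). Its call, and those of Ccl2, Ccl6, Cxcl1, Cxcl2, Cxcl3, Cxcl5 and Cxcl9, were lost without either BV2 library or without BMDM replicate 1, and that of Ccl17 without either BV2 library or BMDM replicate 2. Ccl9, the second ligand per kilobase in BV2 and the leading one in these BMDM, was at 496 and 323 CPM in BV2 and 663 and 464 CPM in BMDM, and these ranges overlapped (edgeR adjusted p = 0.387).

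In BV2 monocultures of the first experiment hypoxia lowered the monocyte attractant Ccl2 and raised the neutrophil attractant Cxcl2. Of 14 ligand genes tested, 3 rose and 4 fell, beside 61.9% of all tested genes called in this comparison. Ccl2 (ENSMUSG00000035385, chr11:82035571-82037453, plus strand) was at 17.1 and 14.0 CPM in the normoxic libraries and at 2.06 and 3.51 CPM in the hypoxic ones. Both hypoxic libraries lay below both normoxic ones (log2 change -2.47 ± 0.28 SE, edgeR adjusted p = 1.28e-06). Ccl24 fell from 2.17 and 3.38 CPM to 0.412 and 0.658 CPM, again without overlap (log2 change -2.35 ± 0.39 SE, edgeR adjusted p = 6.79e-05). Ccl9 (ENSMUSG00000019122, chr11:83572919-83578636, minus strand) fell from 533 and 505 CPM to 364 and 367 CPM and remained one of the leading ligands (log2 change -0.51 ± 0.14 SE, edgeR adjusted p = 0.00462).

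Cxcl2 (ENSMUSG00000058427, chr5:90903871-90905938, plus strand), which binds Cxcr2, had no count in either normoxic BV2 library and stood at 3.60 and 3.51 CPM in hypoxia, at least 27.2-fold higher against a floor of 3 counts in the group (edgeR adjusted p = 2.32e-07). In the second experiment Cxcl2 was not called with hypoxia in BV2 with DMSO (log2 change 1.24, edgeR adjusted p = 0.205). The close relatives Cxcl1 and Cxcl3 stayed near the floor in BV2. Ccl3 (ENSMUSG00000000982, chr11:83647844-83649355, minus strand) was at 313 and 309.9 CPM in normoxia and 374 and 328 CPM in hypoxia and did not pass the test (edgeR adjusted p = 0.203). The calls of Cxcl16, Ccl25 and Ccl22 depended on single libraries. Cxcl16 went from 0.212 and 0.312 to 0.825 and 0.713 CPM (edgeR adjusted p = 0.0243), a call lost without any 1 of the 4 libraries. The call of Ccl25 (log2 change -0.66, edgeR adjusted p = 0.0254) was lost without normoxia replicate 1 or hypoxia replicate 2, and that of Ccl22, a Ccr4 ligand (log2 change 2.00, edgeR adjusted p = 0.0385), without normoxia replicate 2 or hypoxia replicate 1.

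In BV2 co-cultures hypoxia again lowered Ccl2 and raised Cxcl2, and it also raised Ccl3. Of 14 genes, 3 rose and 4 fell with hypoxia, beside 67.3% of all tested genes called. Ccl2 fell from 36.7 and 21.2 CPM to 4.89 and 3.61 CPM, with no overlap between the groups (log2 change -2.75 ± 0.26 SE, edgeR adjusted p = 1.60e-07). Ccl24 fell by a similar log2 value (log2 change -2.34, edgeR adjusted p = 3.85e-05), and Cxcl2 rose from 0.414 and 0.160 CPM to 4.17 and 2.33 CPM (log2 change 3.55 ± 0.49 SE, edgeR adjusted p = 1.30e-05). Ccl3 rose from 449 and 404 CPM to 605 and 579 CPM (log2 change 0.47 ± 0.11 SE, edgeR adjusted p = 0.00163), and both hypoxic libraries were above both normoxic ones. Ccl7, another Ccr2 ligand, fell (log2 change -1.16, edgeR adjusted p = 0.0143), a call lost without normoxia replicate 1 or hypoxia replicate 2. Cxcl10 was called higher in these libraries (log2 change 1.61, edgeR adjusted p = 5.84e-05), but its mean went from 4.20 to 12.7 CPM while the level that GL261 RNA alone would bring went from 0.117 to 7.68 CPM. Most of the difference is thus matched by GL261 RNA, and a rise in BV2 themselves is not shown. Cxcl16 went the opposite way to the monocultures, from 1.45 and 1.49 CPM to 0.278 and 0.757 CPM (log2 change -1.51, edgeR adjusted p = 0.0102), a call lost without hypoxia replicate 1. Its hypoxia effect differed between co-culture and monoculture (log2 change -3.04 ± 0.73 SE, edgeR adjusted p = 0.0424), the single call among 14 genes in that test, beside 2.19% of all genes. That call was lost in 6 of 8 fits that each left out 1 library: without either normoxic monoculture, either normoxic co-culture, or replicate 1 of either hypoxic group.

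GL261 responded to hypoxia with a large rise of Cxcl10. Cxcl10 (ENSMUSG00000034855, chr5:92346638-92348889, minus strand) was at 21.6 and 9.54 CPM in normoxic monocultures and 426 and 244 CPM in hypoxic ones (log2 change 4.42 ± 0.49 SE, edgeR adjusted p = 5.11e-05). In co-culture with BV2 it was at 26.2 and 21.8 CPM in normoxia and 488 and 182 CPM in hypoxia (log2 change 3.80 ± 0.48 SE, edgeR adjusted p = 6.41e-05). Every hypoxic GL261 library lay above every normoxic one, and the call held without any 1 library in both settings. Cxcl10 then held 88.7% of the counts of all ligand genes in hypoxic GL261 monocultures, against 32.0% in normoxia.

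The 250 bases before the Cxcl10 start in the RefSeq promoter table (GRCm38.p6, chr5:92348890-92349139, minus strand) are shown because this gene had the largest change in CPM in GL261. Capitals mark, from left to right, a match to a form of the interferon-stimulated response element (GAAA, any 2 bases, GAAA) and a match to a form of the NF-kB site (GGG, any 2 bases, TT, any base, CC).
Cxcl10: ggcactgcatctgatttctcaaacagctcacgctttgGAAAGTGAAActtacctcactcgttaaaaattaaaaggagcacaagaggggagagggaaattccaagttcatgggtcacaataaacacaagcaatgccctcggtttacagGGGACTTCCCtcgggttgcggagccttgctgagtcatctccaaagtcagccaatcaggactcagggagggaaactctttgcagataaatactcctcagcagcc

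Of 11 ligand genes tested in GL261 monocultures, 4 rose and 1 fell with hypoxia, beside 44.6% of all tested genes called. In co-culture 4 rose and 2 fell, beside 52.4%. The monocyte attractant Ccl2 was at 1.23 and 0.853 CPM in normoxic and 12.3 and 2.35 CPM in hypoxic monocultures (log2 change 2.83 ± 0.96 SE, edgeR adjusted p = 0.0308). In co-culture it went from 1.43 and 0.797 CPM to 25.5 and 3.00 CPM (log2 change 3.67 ± 0.97 SE, edgeR adjusted p = 0.00785). In both settings replicate 1 was far above replicate 2 in hypoxia, although the groups did not overlap. The call in monocultures was lost without either normoxic library or without hypoxia replicate 1, and in co-culture without normoxia replicate 2 or hypoxia replicate 1.

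Hypoxia replicate 1 was also the higher library for the other ligands that rose in GL261. Cx3cl1 was at 2.91 and 2.45 CPM in normoxic and 14.0 and 5.29 CPM in hypoxic monocultures (log2 change 1.85 ± 0.48 SE, edgeR adjusted p = 0.00890), a call lost without normoxia replicate 2 or hypoxia replicate 1. Cxcl1 had no count in normoxia and 1.79 and 0.374 CPM in hypoxia, at least 6.92-fold higher (edgeR adjusted p = 0.0131), a call lost without either normoxic library or hypoxia replicate 1. In co-culture Cxcl1 had 1 count in normoxia, a ratio of 25.5-fold with an exact 95% interval on counts of 4.21 to 1045 (edgeR adjusted p = 0.0469), and this call was lost without the same 3 libraries of its groups. Ccl7 had 2 counts in normoxic co-cultures and 4.92 and 0.623 CPM in hypoxia, a ratio of 42.1-fold with an exact 95% interval on counts of 11.3 to 353 (edgeR adjusted p = 0.0155), lost without normoxia replicate 2 or hypoxia replicate 1. Ccl27a went the other way. It fell from 5.93 and 7.68 CPM to 2.56 and 4.06 CPM in monocultures (log2 change -1.05 ± 0.32 SE, edgeR adjusted p = 0.0192), a call lost without normoxia replicate 2 or hypoxia replicate 1, and had a log2 change of -1.52 (edgeR adjusted p = 0.00292) in co-culture. Ccl25 was at 25.5 and 15.6 CPM in normoxic and 16.8 and 20 CPM in hypoxic monocultures, which overlapped.

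The hypoxia responses of BV2 and GL261 monocultures differed for 5 of 17 ligand genes in a test of the difference itself, beside 37.4% of all genes. Cxcl10 was at 1.91 and 1.11 CPM in normoxic and 1.53 and 1.43 CPM in hypoxic BV2, and its response was lower in BV2 than in GL261 (log2 change -4.37 ± 0.83 SE, edgeR adjusted p = 0.000397). Ccl2 fell in BV2 and rose in GL261, and this difference passed (log2 change -5.21 ± 1.09 SE, edgeR adjusted p = 0.000931). Cx3cl1 also differed (log2 change -4.71, edgeR adjusted p = 0.0179), a call lost without BV2 normoxia replicate 2 or BV2 hypoxia replicate 1. The difference of Cxcl2 (edgeR adjusted p = 0.0497) was lost without any BV2 library or either normoxic GL261 library. That of Cxcl16 (log2 change 2.63, edgeR adjusted p = 0.0396) was lost in 7 of 8 fits, all but the fit without GL261 hypoxia replicate 1.

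**Figure D2:**
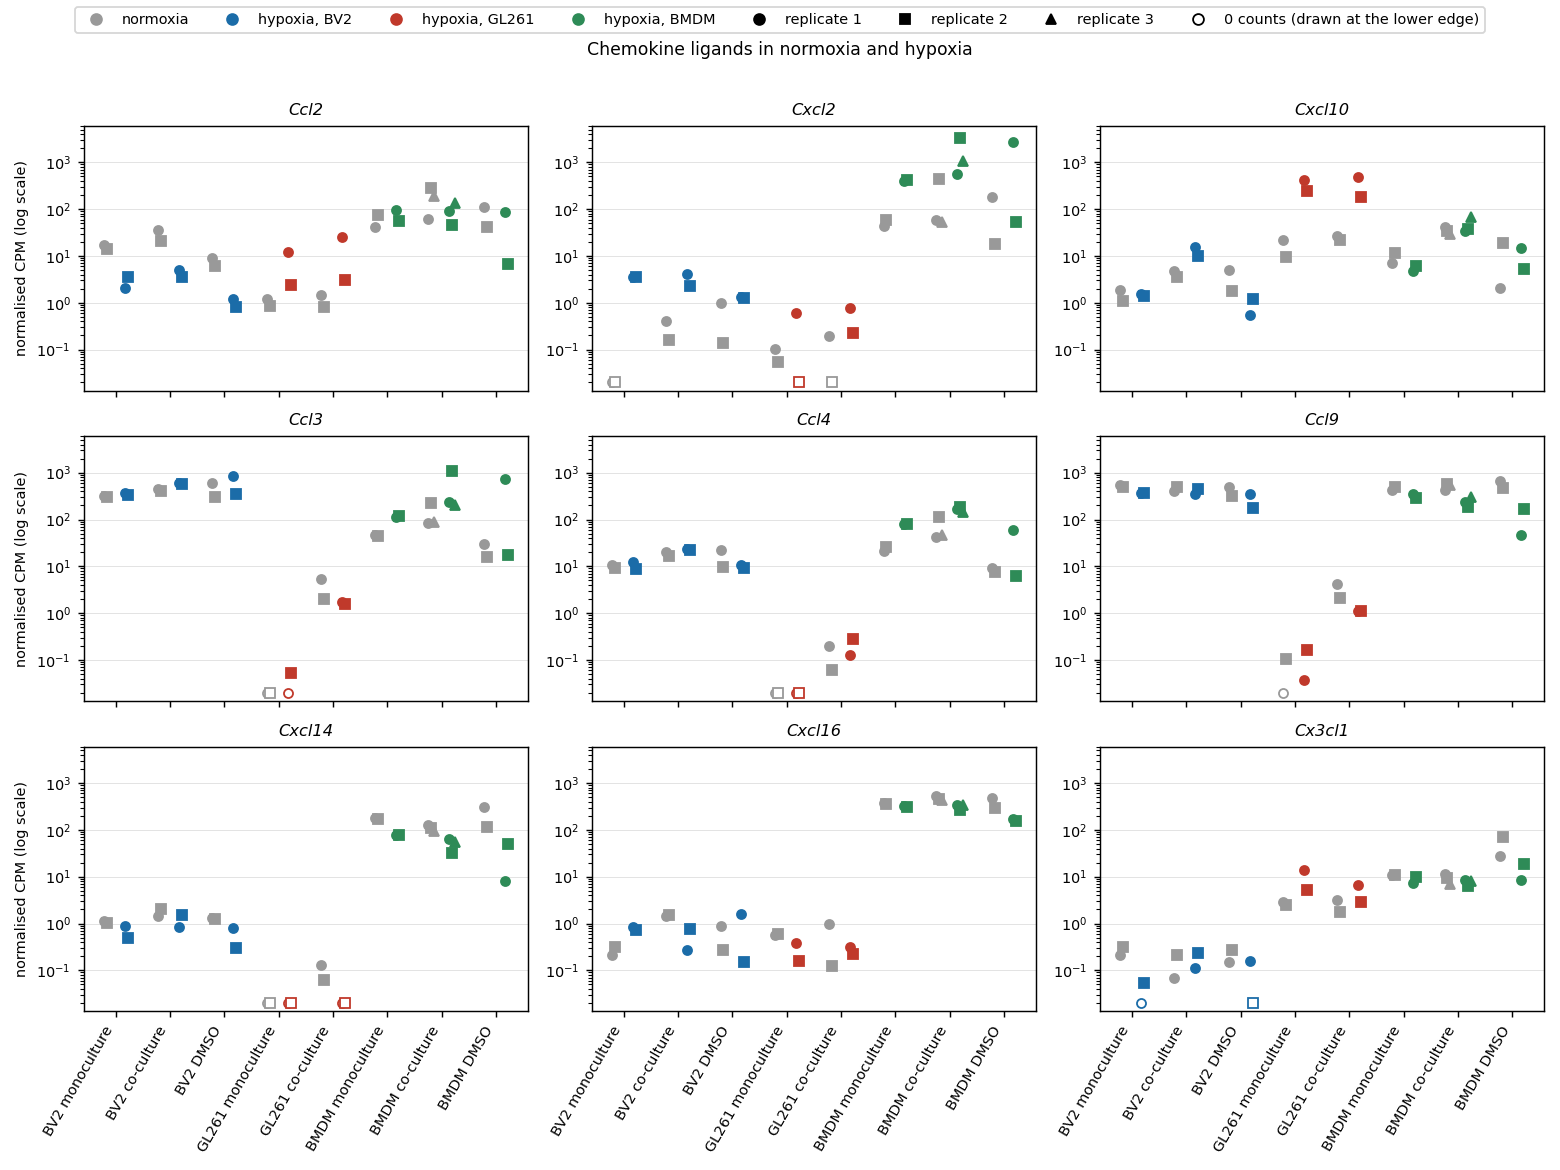
Level in CPM (log axis) of 9 ligand genes in each library, normoxia in grey and hypoxia in colour, for each cell type and culture. Symbol shapes give the replicate, open symbols at the lower edge mark 0 counts, and each cell type of each table was scaled separately. Hypoxic Ccl2 lies below normoxic Ccl2 in BV2 and above it in GL261, and Cxcl10 reaches 182 to 488 CPM in hypoxic GL261.

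In BMDM of the first experiment hypoxia raised Ccl4 and lowered Cxcl14 both in monoculture and in co-culture. In the second experiment neither gene was called with hypoxia in DMSO. Of 21 ligand genes tested in BMDM monocultures, 1 rose and 1 fell, beside 23.9% of all tested genes called. Ccl4 (ENSMUSG00000018930, chr11:83662584-83664683, plus strand) rose from 20.9 and 25.7 CPM to 80.1 and 81.7 CPM (log2 change 1.79 ± 0.39 SE, edgeR adjusted p = 0.00809), a call lost without normoxia replicate 1. Cxcl14 (ENSMUSG00000021508, chr13:56288643-56296551, minus strand) fell from 176 and 175 CPM to 76.4 and 77.9 CPM (log2 change -1.18 ± 0.28 SE, edgeR adjusted p = 0.0117), a call lost without either hypoxic library. In both genes the replicates lay close together and the groups were apart. Cxcl2 was at 44.4 and 59.0 CPM in normoxia and 407 and 426 CPM in hypoxia, which made it the leading ligand per kilobase of hypoxic BMDM, at 201 CPM per kilobase. It narrowly missed the threshold (log2 change 3.01 ± 1.02 SE, edgeR adjusted p = 0.0534). Ccl3 was at 46.8 and 44.5 CPM in normoxia and 112 and 116 CPM in hypoxia and did not pass either (edgeR adjusted p = 0.211). Ccl2 was at 42.3 and 73.7 CPM in normoxia and 94.8 and 56.8 CPM in hypoxia, and these ranges overlapped (edgeR adjusted p = 0.690).

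In co-cultured BMDM, where each group had 3 libraries, 10 of 21 ligand genes were called, 5 higher and 5 lower in hypoxia, beside 34.8% of all tested genes. Ccl9, Cxcl16 and Cxcl14, which lead in normoxic BMDM monocultures, fell. Ccl9 was at 422, 559.5 and 536 CPM in normoxia and 231, 189 and 304 CPM in hypoxia, with all 3 hypoxic libraries lower (log2 change -1.07 ± 0.19 SE, edgeR adjusted p = 0.00144). Cxcl16 (ENSMUSG00000018920, chr11:70453983-70459984, minus strand) was at 522, 467 and 436 CPM and 337, 262 and 332 CPM, again without overlap (log2 change -0.61 ± 0.14 SE, edgeR adjusted p = 0.00557). Cxcl14 fell from 129, 109 and 93.9 CPM to 65.2, 31.5 and 55.5 CPM (log2 change -1.13 ± 0.23 SE, edgeR adjusted p = 0.00315). Ccl12, a Ccr2 ligand of mice, fell (log2 change -1.92, edgeR adjusted p = 0.0152), a call lost without normoxia replicate 2. Ccl6 fell (log2 change -0.74, edgeR adjusted p = 0.0373), a call lost without normoxia replicate 2 or hypoxia replicate 1 or 2. Without both replicate 2 libraries neither Ccl12 nor Ccl6 passed, while Ccl9, Cxcl16 and Cxcl14 did.

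The ligands that rose in co-cultured BMDM were the CC ligands Ccl3, Ccl4 and Ccl5 and the Cxcr2 ligands Cxcl1 and Cxcl2. Ccl4 was at 42.6, 113 and 47.2 CPM in normoxia and 168, 182 and 142 CPM in hypoxia, with no overlap (log2 change 1.28 ± 0.31 SE, edgeR adjusted p = 0.00831). Cxcl2 was at 57.6, 439 and 53.8 CPM in normoxia and 572, 3314 and 1050 CPM in hypoxia (log2 change 3.16 ± 0.84 SE, edgeR adjusted p = 0.0130), a call lost without hypoxia replicate 2. Replicate 2 was the highest library of each oxygen level for Cxcl2, Cxcl1, Ccl3 and Ccl5. Cxcl1 was at 2.41, 35.4 and 3.66 CPM in normoxia and 14.4, 301 and 46.5 CPM in hypoxia (log2 change 3.11, edgeR adjusted p = 0.0466). Ccl3 was at 84.0, 227 and 88.1 CPM and 241, 1113 and 202 CPM (log2 change 1.96, edgeR adjusted p = 0.0252), and Ccl5 at 2.41, 15.8 and 5.01 CPM and 10.6, 203 and 45.9 CPM (log2 change 3.48, edgeR adjusted p = 0.0143). In these 3 genes the groups overlapped, and each call was lost without normoxia replicate 1 or 3 or hypoxia replicate 2.

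Cxcl3 separated the libraries most. It was at 1.67, 284 and 0.193 CPM in normoxic and 3.01, 932 and 13.2 CPM in hypoxic co-cultures, so that replicate 2 was more than an order of magnitude above the others at both oxygen levels (edgeR adjusted p = 0.510). Dcn, a fibroblast marker, was at 0.0617, 8.91 and 0.481 CPM in the normoxic and 0.100, 19.6 and 0.169 CPM in the hypoxic co-cultures, and was highest in the same libraries. Pf4, a chemokine known from platelets and macrophages, was at 64.4, 544 and 88.8 CPM in the normoxic co-cultures, also highest in replicate 2. Their part in the ligand values was not tested. Without both replicate 2 libraries, an alternative chosen after seeing the data, 9 of the ligand genes were called with hypoxia, beside 32.9% of all tested genes. These included Cxcl2 (log2 change 3.85), Cxcl1 (3.35), Ccl5 (2.96), Ccl3 (1.35) and Ccl4 (1.78), all higher in hypoxia, and Cxcl3 (3.00), which is not called with all libraries.

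**Figure D3:**
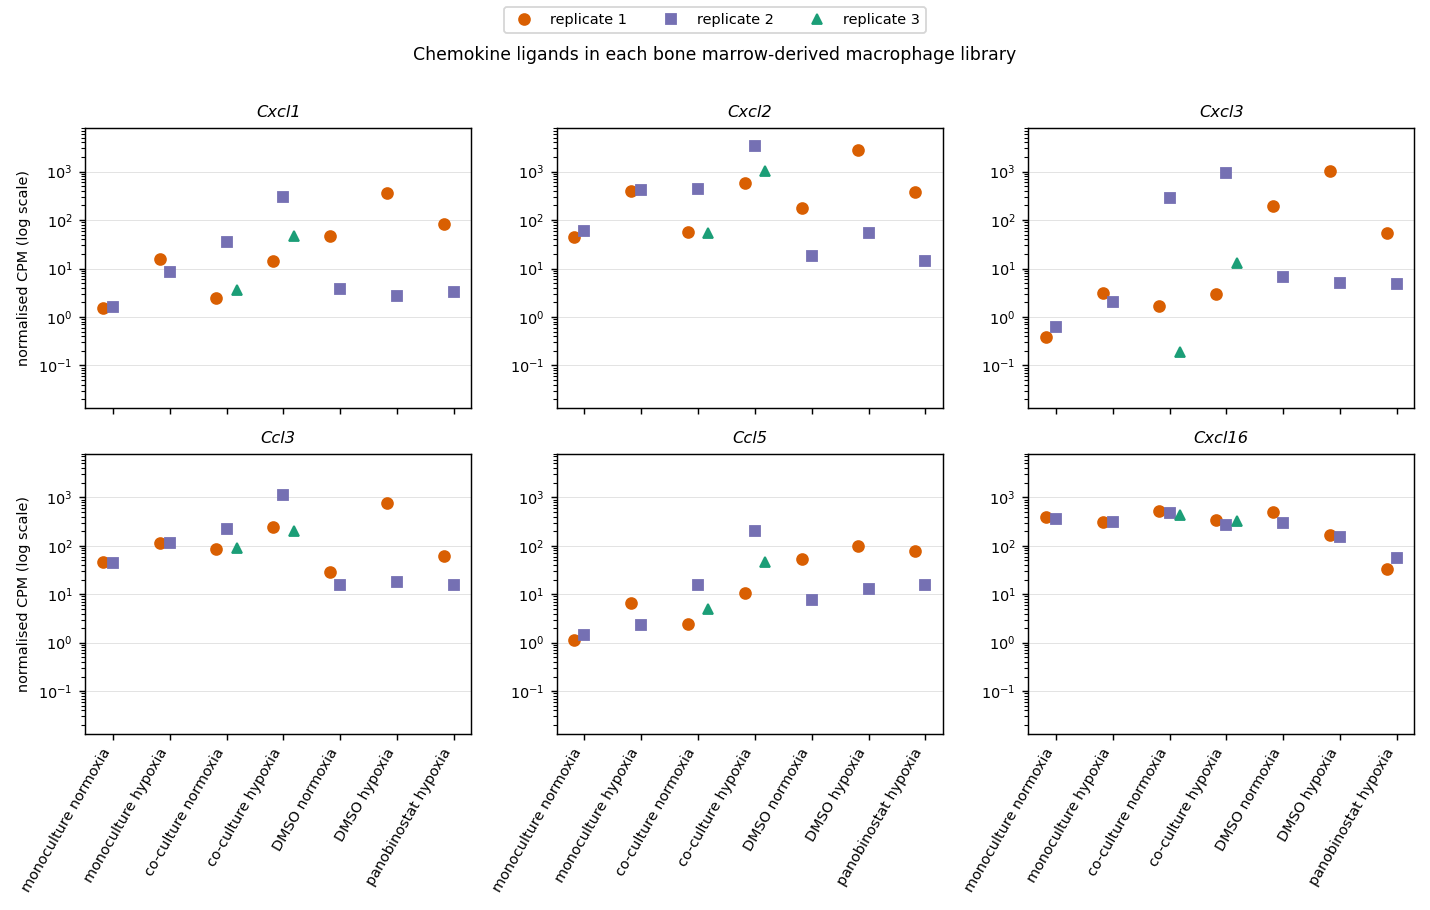
Level in CPM (log axis) of 6 ligand genes in each BMDM library of both experiments, by group, with replicates 1, 2 and 3 as circles, squares and triangles; the experiments were scaled separately and their replicate numbers are not linked. For Cxcl3 the squares of the co-culture groups, at 284 and 932 CPM, and the circles of the DMSO and panobinostat groups lie far above the other replicates, whereas those of Cxcl16 lie close together in each group.

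The promoters of Cxcl1, Cxcl2 and Cxcl3 are shown because these neighbours on chromosome 5 were highest in the same libraries, and that of Ccl9 because this leading ligand fell instead. Each line gives the 250 bases before the start of the RefSeq transcript (GRCm38.p6), and capitals mark matches to the same NF-kB form on either strand. Their positions are chr5:90890995-90891244, plus strand for Cxcl1, chr5:90903649-90903898, plus strand for Cxcl2, chr5:90785851-90786100, plus strand for Cxcl3 and chr11:83578637-83578886, minus strand for Ccl9.
Cxcl1: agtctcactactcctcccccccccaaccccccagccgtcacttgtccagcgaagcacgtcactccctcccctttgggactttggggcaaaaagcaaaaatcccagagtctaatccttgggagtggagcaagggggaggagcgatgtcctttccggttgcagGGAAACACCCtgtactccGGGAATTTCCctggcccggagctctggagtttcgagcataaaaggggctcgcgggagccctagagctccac
Cxcl2: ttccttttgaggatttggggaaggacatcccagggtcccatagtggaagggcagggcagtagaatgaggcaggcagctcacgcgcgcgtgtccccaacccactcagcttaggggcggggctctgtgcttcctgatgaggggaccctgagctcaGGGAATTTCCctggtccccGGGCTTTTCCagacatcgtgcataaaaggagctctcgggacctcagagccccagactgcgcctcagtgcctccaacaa
Cxcl3: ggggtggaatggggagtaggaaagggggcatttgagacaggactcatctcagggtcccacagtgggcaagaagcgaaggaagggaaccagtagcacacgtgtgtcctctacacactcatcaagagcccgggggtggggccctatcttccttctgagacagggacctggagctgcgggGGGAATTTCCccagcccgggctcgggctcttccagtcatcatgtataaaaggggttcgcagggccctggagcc
Ccl9: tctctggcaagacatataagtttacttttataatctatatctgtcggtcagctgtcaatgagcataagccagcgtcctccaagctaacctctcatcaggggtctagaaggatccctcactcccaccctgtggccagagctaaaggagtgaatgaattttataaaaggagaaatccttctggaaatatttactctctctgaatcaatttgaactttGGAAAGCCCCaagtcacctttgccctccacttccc

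Cxcl1 and Cxcl2 each hold 2 matches and Cxcl3 holds 1, all within the last 100 bases before the start, and the match of Ccl9 begins 35 bases before it. Promoters were found for 27 of the 37 members. Some have several start sites. The NF-kB form, searched on both strands like the others, occurs in 8 of their 33 promoters, 1 each for 8 genes (Ccl9, Ccl19, Ccl20, Cxcl1, Cxcl2, Cxcl3, Cxcl9 and Cxcl10) and in 4.11% of 32851 promoters of the same length. The interferon form occurs in 3 of 33 (Ccl19, Cxcl10 and Cxcl14) and in 2.98% of all promoters. Of the core letters of the hypoxia response element, ACGTG occurs in 4 of 33 and in 16.6% of all, and GCGTG in 13 of 33 (11 genes) and in 28.2% of all. A match describes letters in the window and does not show a used site.

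Co-culture comparisons hold RNA of the partner, which was measured from genes specific to it. Since no serum level is given for the monocultures, any difference in serum cannot be told apart from contact. Partner RNA made up 0.748% of co-cultured BV2 in normoxia and 2.29% in hypoxia, and 0.779% and 0.240% of co-cultured GL261. In co-cultured BMDM it ranged over 1.27 to 3.67% in normoxia and 1.75 to 6.03% in hypoxia. The expected carry-over of a ligand is this share times its level in the partner grown alone, and a ligand was flagged where the partner level was at least 4-fold higher. For BMDM the partner reference is GL261 grown alone in the BV2 and GL261 table, since the series holds no GL261 libraries from the BMDM co-cultures. The BMDM figures are therefore estimates across tables that were scaled separately.

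In normoxic BV2 contact with GL261 raised 8 of 14 ligand genes and lowered none, beside 14.9% of all tested genes called and 5.77% called higher. They are the CC ligands Ccl3, Ccl4 and Ccl5, the Ccr2 ligands Ccl2 and Ccl7, Cxcl16, Cxcl2 and the flagged Cxcl10. Ccl4 was at 10.6 and 9.39 CPM alone and 19.9 and 16.9 CPM in co-culture (log2 change 0.88 ± 0.17 SE, edgeR adjusted p = 0.00367). Ccl5 was at 1.87 and 1.56 CPM alone and 3.87 and 5.44 CPM in co-culture (log2 change 1.45 ± 0.28 SE, edgeR adjusted p = 0.00436). Ccl3 rose by 0.45 (edgeR adjusted p = 0.0148) and Ccl2 by 0.89 (edgeR adjusted p = 0.0161) on the log2 scale. For Ccl3, Ccl4 and Ccl5 the GL261 monocultures were at or near 0, so GL261 RNA could carry over next to none. Cxcl16 went from 0.212 and 0.312 CPM to 1.45 and 1.49 CPM (log2 change 2.47, edgeR adjusted p = 0.00545), with the normoxic co-cultures above all other BV2 groups of that table.

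The remaining normoxic rises were at low levels. Cxcl2 had no count alone and 0.414 and 0.160 CPM in co-culture, at least 2.20-fold higher (edgeR adjusted p = 0.0273), and Ccl7 rose by 1.24 (edgeR adjusted p = 0.0357). Cxcl10 was at 1.91 and 1.11 CPM alone and 4.84 and 3.57 CPM in co-culture (log2 change 1.45, edgeR adjusted p = 0.00794), against a carry-over of 0.117 CPM. Single libraries weighed on these calls, since 1 to 7 genes were called when 1 library was left out. Cxcl16 was called in all 4 such fits. Without monoculture replicate 2 the calls of Ccl2, Ccl3, Ccl4, Ccl5, Ccl7, Cxcl2 and Cxcl10 were lost. Without co-culture replicate 1 those of Ccl2, Ccl3, Ccl7, Cxcl2 and Cxcl10 were lost, without monoculture replicate 1 those of Ccl3, Ccl7 and Cxcl2, and without co-culture replicate 2 that of Ccl5.

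In hypoxic BV2 contact raised 4 of 14, beside 15.7% of all tested genes called and 8.13% called higher. Ccl3 was at 374 and 328 CPM alone and 605 and 579 CPM in co-culture (log2 change 0.76 ± 0.11 SE, edgeR adjusted p = 0.000258), and Ccl4 at 12.4 and 8.89 CPM alone and 23.4 and 22.1 CPM in co-culture (log2 change 1.10 ± 0.17 SE, edgeR adjusted p = 0.000268). In both genes the co-cultures lay above the monocultures. Ccl5 rose by 0.95 (edgeR adjusted p = 0.0390), a call lost without either monoculture or without co-culture replicate 2. Cxcl10 was at 1.53 and 1.43 CPM alone and 15.6 and 9.79 CPM in co-culture (log2 change 3.10 ± 0.30 SE, edgeR adjusted p = 3.43e-06), while GL261 RNA alone would bring 7.68 CPM, or 68.5% of the rise.

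**Figure D4:**
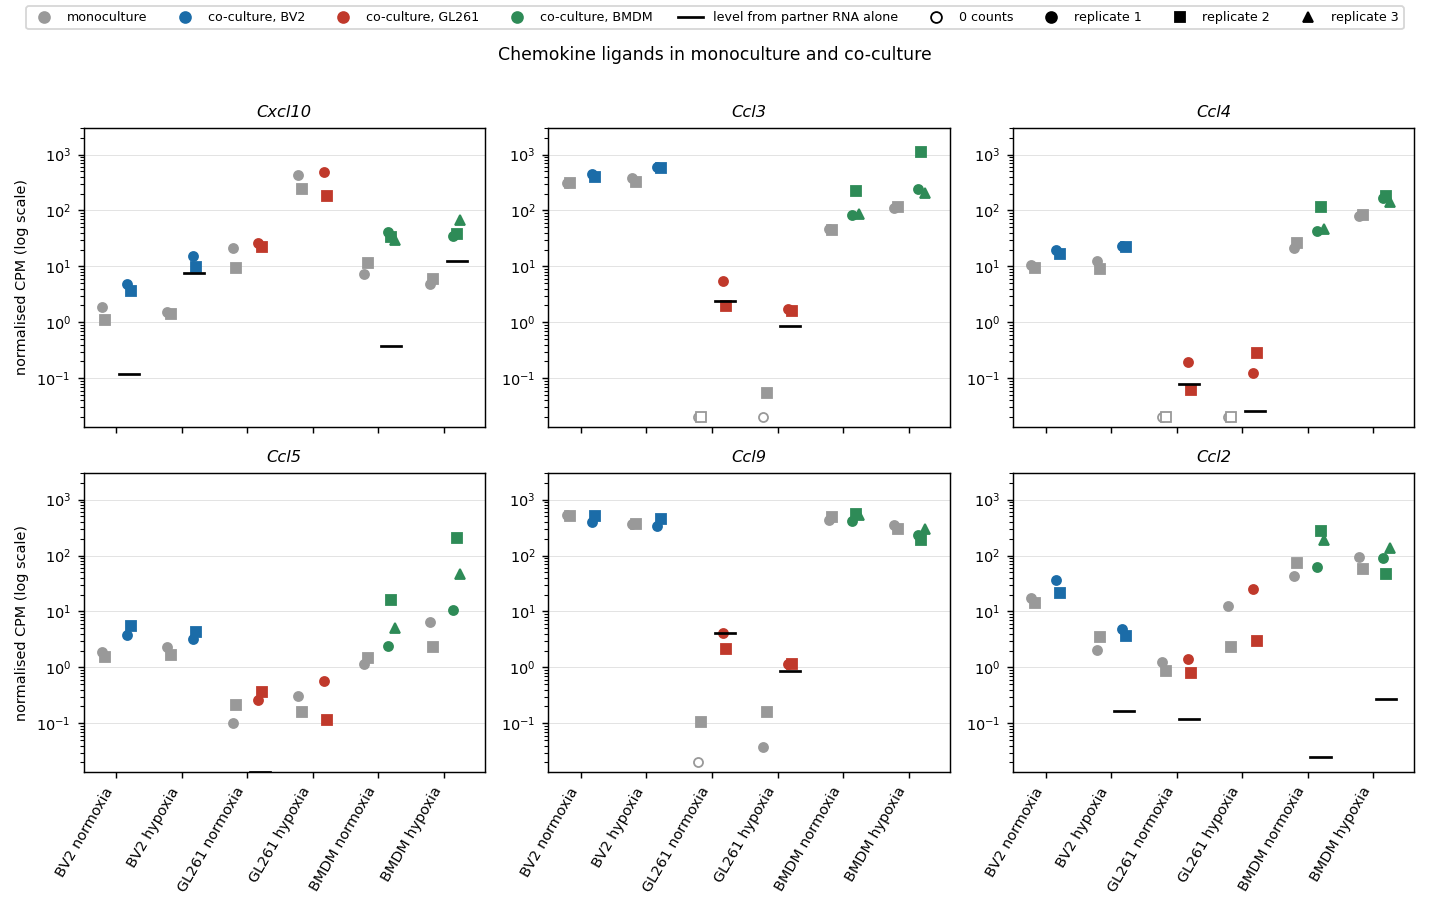
Level in CPM (log axis) of 6 ligand genes in monoculture (grey) and co-culture (colour) for each cell type and oxygen level, 1 symbol per library, with a black bar for the level that partner RNA alone would give where that lies within the axis; open symbols mark 0 counts. For Ccl3 in co-cultured GL261 the libraries lie at 1.58 to 5.45 CPM beside bars at 2.42 and 0.843 CPM, and for Ccl3 and Ccl4 in co-cultured BV2 no bar is within the axis.

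In co-cultured GL261 2 of 11 ligand genes were called in normoxia (beside 0.514% of all tested genes) and 2 in hypoxia (beside 1.39%), and both were BV2 ligands. Ccl3 had no count in normoxic GL261 alone and 5.45 and 1.96 CPM in co-culture (at least 23.7-fold higher, edgeR adjusted p = 0.0112), where BV2 RNA would bring 2.42 CPM. Ccl9 had 4.09 and 2.15 CPM in co-culture (edgeR adjusted p = 0.0115), and BV2 RNA would bring 4.04 CPM. In hypoxia Ccl3 was at 1.70 and 1.58 CPM (edgeR adjusted p = 0.0214) and Ccl9 at 1.14 and 1.13 CPM (edgeR adjusted p = 0.0452), against carry-overs of 0.843 and 0.879 CPM. With the co-cultured BV2 as reference the carry-over of Ccl3 in hypoxia was 1.77 CPM. A fit without genes higher in BV2 drops Ccl3 and Ccl9 themselves, so that its 0 ligand calls in edgeR at both oxygen levels, beside 0.0924% and 1.22% of the genes left, follow from that choice and are no test of the carry-over. The fall of Ccl9 with hypoxia in co-cultured GL261 (log2 change -1.45, edgeR adjusted p = 0.0283) stands beside a carry-over that went from 4.04 to 0.879 CPM. These calls also rested on single libraries: the normoxic pair was lost without either monoculture or co-culture replicate 1, Ccl3 in hypoxia without either monoculture, Ccl9 in hypoxia without any 1 library, and the fall of Ccl9 without co-culture normoxia replicate 1 or either hypoxic co-culture. Cxcl10, Ccl2 and Cx3cl1 of GL261 were not called with co-culture. A difference of the hypoxia effect between co-culture and monoculture of GL261 was called for 0 of 11 ligand genes in edgeR, beside 0% of all genes, and 0 had an unadjusted p under 0.05.

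In BMDM the ligand that rose with contact was Cxcl10. It was at 7.22 and 11.5 CPM alone and 41.0, 33.7 and 30.1 CPM in normoxic co-culture (log2 change 1.90 ± 0.32 SE, edgeR adjusted p = 0.0174), where GL261 RNA would bring 0.376 CPM. This was the single call among 21 ligand genes, beside 1.64% of all tested genes. In hypoxia it was at 4.87 and 6.01 CPM alone and 34.3, 37.2 and 67.7 CPM in co-culture (log2 change 3.09 ± 0.34 SE, edgeR adjusted p = 0.00386), again the single call, beside 7.11%. There GL261 RNA would bring 12.6 CPM, 30.7% of the rise. At the highest partner share of a library it would bring 20.2 CPM. These figures rest on hypoxic GL261 monocultures of another table, at 426 and 244 CPM. All co-cultures lay above all monocultures at both oxygen levels. Each call was lost without either monoculture library of its oxygen level. Without both replicate 2 libraries Ccl3 (0.91 in normoxia and 0.95 in hypoxia, log2) and Ccl4 (0.94 in both) also rose, beside 0.626% and 7.03% of all genes called. A difference of the hypoxia effect between co-culture and monoculture of BMDM was called for 0 of 21 ligand genes in edgeR, beside 0% of all genes, and 1 had an unadjusted p under 0.05.

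In hypoxic BV2 panobinostat lowered Ccl9 and raised Ccl2. In DMSO hypoxia lowered 3 of 12 tested ligand genes, beside 37.5% of all tested genes, and panobinostat raised 1 and lowered 1, beside 14.6%. Ccl2 was at 9.15 and 5.98 CPM in normoxia, 1.18 and 0.821 CPM in hypoxia and 8.44 and 3.53 CPM in hypoxia with panobinostat. It fell with hypoxia (log2 change -2.91 ± 0.52 SE, edgeR adjusted p = 0.00234) and rose with panobinostat (log2 change 2.57 ± 0.52 SE, edgeR adjusted p = 0.0131), a call lost without panobinostat replicate 1. Ccl9 was at 496 and 323 CPM, 359 and 178 CPM and 82.3 and 47.6 CPM in the same order. Both panobinostat libraries lay below both DMSO libraries (log2 change -2.04 ± 0.39 SE, edgeR adjusted p = 0.0104), a call lost without panobinostat replicate 2.

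Replicates of the same number deviated together in this experiment, and a fit with the replicate number as a block raised the calls to 5 with hypoxia (beside 49% of all genes) and 4 with panobinostat (beside 30.3%). Ccl24 was at 1.86 and 1.53 CPM, 0.393 and 0.0746 CPM and 1.21 and 1.15 CPM. It fell with hypoxia (log2 change -2.83, edgeR adjusted p = 0.00877), a call lost without hypoxia replicate 2, and the panobinostat libraries were higher (edgeR adjusted p = 0.0512; with the block log2 change 2.34, edgeR adjusted p = 0.0167). Cxcl10 fell with hypoxia in DMSO, from 4.99 and 1.81 CPM to 0.550 and 1.19 CPM (log2 change -1.94, edgeR adjusted p = 0.0402), a call lost without replicate 1 of either group. Cxcl16 passed with the block (log2 change 1.52, edgeR adjusted p = 0.0498), at 1.57 and 0.149 CPM without and 3.06 and 1.22 CPM with panobinostat. With the block Ccl9 (log2 change -0.67, edgeR adjusted p = 0.00883) and Ccl4 (log2 change -0.65, edgeR adjusted p = 0.0452) also fell with hypoxia in DMSO. Ccl3 was at 845 and 346 CPM without and 723 and 389 CPM with panobinostat, and these ranges overlapped (edgeR adjusted p = 0.912).

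In BMDM no ligand gene passed the edgeR test in the second experiment. With hypoxia in DMSO 0 of 22 were called, beside 0.483% of all tested genes, 7 had an unadjusted p under 0.05, and DESeq2 called 6, beside 14% of its genes. With panobinostat 0 of 22 were called, beside 0%, 4 had an unadjusted p under 0.05, and DESeq2 called 3, beside 13.6%. With the replicate block edgeR called 2 with hypoxia (beside 14.3% of all genes) and 3 with panobinostat (beside 13.7%). The myeloid marker sum was 6232 to 8404 CPM in normoxia, 3676 to 4938 CPM in hypoxia and 696 to 1819 CPM with panobinostat. The fibroblast sum was 20140 to 24200, 2947 to 14610 and 7824 to 12670 CPM, with all 5 fibroblast markers above 1 CPM on average in each group. The part of these shifts in the ligand values was not tested, and fewer cells of a type cannot be told apart from less RNA per cell.

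Cxcl16 was at 489 and 294 CPM in normoxia, 167 and 155 CPM in hypoxia and 33.2 and 56.1 CPM with panobinostat. The groups did not overlap, and the panobinostat difference passed with the block alone (log2 change -1.85 ± 0.39 SE, edgeR adjusted p = 0.0689; with the block log2 change -1.84, edgeR adjusted p = 0.0377). Cx3cl1 (ENSMUSG00000031778, chr8:94772009-94782427, plus strand) was at 27.5 and 68.8 CPM, 8.56 and 18.3 CPM and 103 and 64.3 CPM. Its panobinostat libraries lay above both hypoxic DMSO libraries (log2 change 2.65 ± 0.59 SE, edgeR adjusted p = 0.0752; with the block log2 change 2.81, edgeR adjusted p = 0.0313). Ccl9 was at 663 and 464 CPM, 46.8 and 164 CPM and 20.4 and 33.4 CPM. Both hypoxic libraries lay below both normoxic ones (edgeR adjusted p = 0.104; with the block log2 change -2.67, edgeR adjusted p = 0.0382), and the panobinostat libraries were lower still (edgeR adjusted p = 0.125).

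The Cxcr2 ligands again differed strongly between the replicates. Cxcl2 was at 181 and 17.8 CPM in normoxia, 2757 and 54.3 CPM in hypoxia and 381 and 14.2 CPM with panobinostat. Replicate 1 was the higher library in each group. Cxcl3 was at 191 and 6.73 CPM, 1029 and 5.09 CPM and 54.0 and 4.71 CPM, and Cxcl1 at 47.5 and 3.71 CPM, 362 and 2.77 CPM and 81.2 and 3.34 CPM. The groups overlapped for all 3. With the block Cxcl2 was called with hypoxia (log2 change 2.75, edgeR adjusted p = 0.0381) and with panobinostat (log2 change -2.49, edgeR adjusted p = 0.0436). Ccl3 followed the same replicate, at 29.3 and 15.7 CPM, 751 and 17.5 CPM and 62.2 and 15.4 CPM. Ccl2 was at 110 and 41.4 CPM, 85.3 and 6.64 CPM and 7.44 and 8.27 CPM and was not called with panobinostat (log2 change -2.55, edgeR adjusted p = 0.213). Cxcl5, a further Cxcr2 ligand, was at 35.5 and 0.503 CPM, 1.57 and 0.111 CPM and 2.17 and 1.67 CPM, so its level in normoxia rested on replicate 1. Ccl6 was at 76.4 and 27.4 CPM, 1.78 and 10.3 CPM and 2.37 and 8.34 CPM, with both hypoxic groups below normoxia (edgeR adjusted p = 0.141). Cxcl14 showed the same order, at 305 and 114 CPM, 8.27 and 49.0 CPM and 13.0 and 37.8 CPM (edgeR adjusted p = 0.151).

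**Figure D5:**
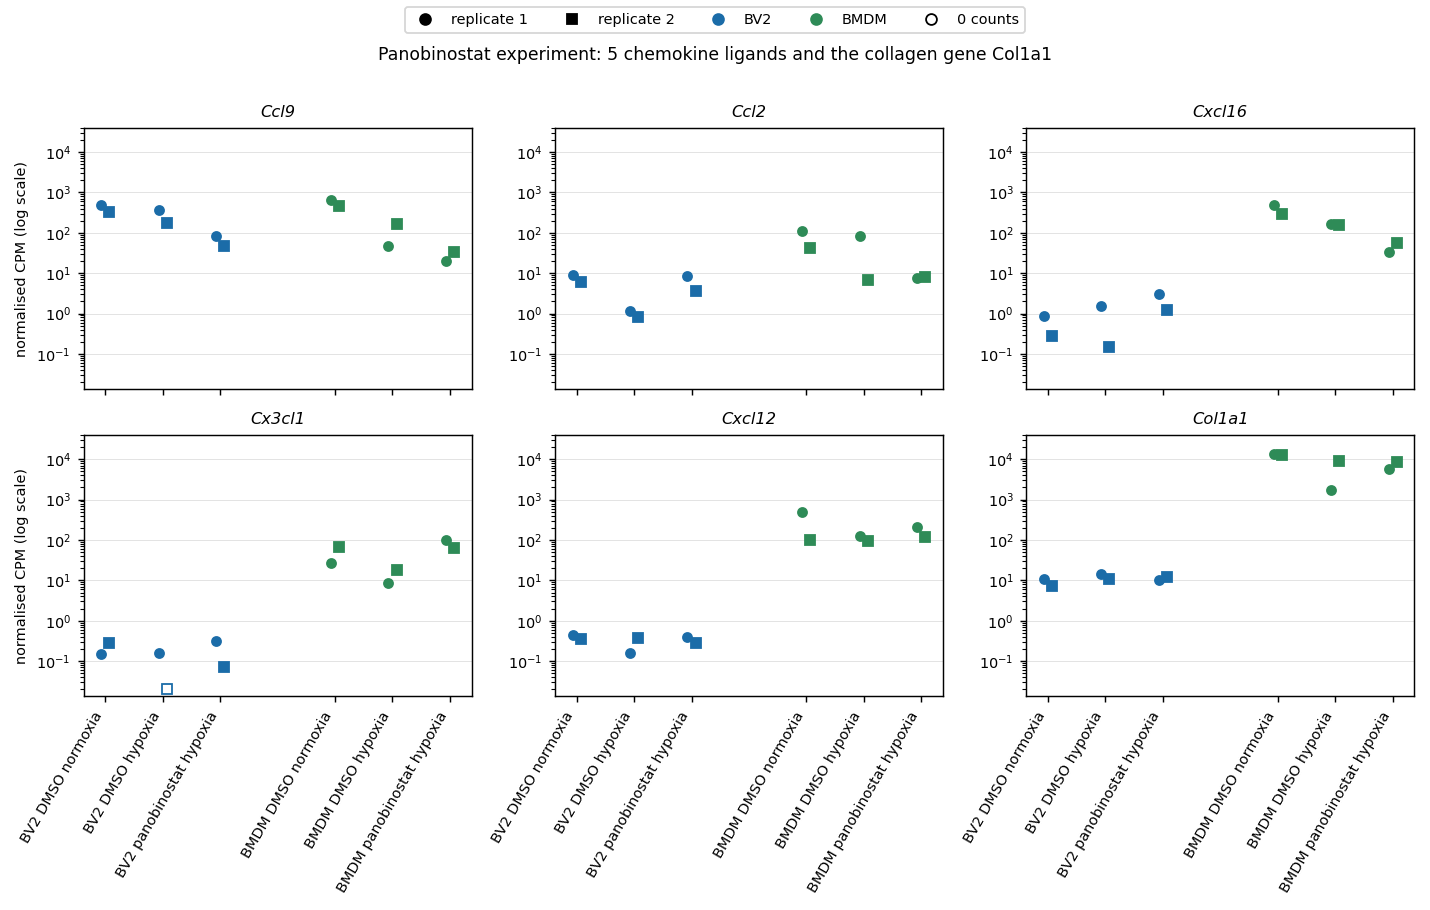
Level in CPM (log axis) of 5 ligand genes and the fibroblast gene Col1a1 in DMSO normoxia, DMSO hypoxia and panobinostat hypoxia, for BV2 (blue) and BMDM (green), each point 1 library and an open symbol 0 counts. Ccl9 is lowest with panobinostat in both cell types, and Ccl2 in BV2 is lowest in hypoxia with DMSO.

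The responses of BV2 and BMDM in the second experiment were also tested against each other. Serum differed between these cell types. For the hypoxia effect in DMSO edgeR called 0 of 23 ligand genes (beside 0.664% of all genes), 3 had an unadjusted p under 0.05, and DESeq2 called 1, Ccl6, beside 8.47%. For the panobinostat effect edgeR called 0 of 23 (beside 0.0251%), 4 had an unadjusted p under 0.05, and DESeq2 called 2, Ccl7 and Ccl2, beside 1.45%. The panobinostat and hypoxia comparisons of a cell type share the hypoxic DMSO libraries. The first experiment gives no test of BMDM against BV2 or GL261, since they are in separate tables.

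Among the listed chemokine receptor genes, Cxcr4 rose with hypoxia in BV2 and in BMDM monocultures. Of 23 receptors 8 could be tested in BV2 monocultures, and 3 rose and 1 fell with hypoxia, beside 61.9% of all tested genes called. Cxcr4, the Cxcl12 receptor, was at 92.1 and 90.5 CPM in normoxia and 234 and 228 CPM in hypoxia (log2 change 1.34 ± 0.13 SE, edgeR adjusted p = 1.69e-07). Ccr1, which binds Ccl3, Ccl5 and Ccl9, was at 0.510 and 0.0891 CPM and 8.78 and 9.22 CPM (log2 change 4.86 ± 0.38 SE, edgeR adjusted p = 1.93e-08), so a receptor of the leading BV2 ligands was higher in both hypoxic libraries. In BV2 co-cultures 4 of 8 rose and 1 fell, beside 67.3% of all genes, where Ackr3, one of those that rose, was high in GL261 itself, at 107 and 66.1 CPM in hypoxic monocultures. In BMDM monocultures 3 of 10 receptors rose, beside 23.9% of all genes called, among them Cxcr4 (log2 change 1.98, edgeR adjusted p = 0.00627) and Ccrl2, a receptor that binds without signalling, from 4.54 and 3.02 to 45.0 and 76.3 CPM (log2 change 3.99, edgeR adjusted p = 0.000138). In BMDM co-cultures 2 of 10 rose and 2 fell, beside 34.8%, the latter including Ccr2 (log2 change -1.40, edgeR adjusted p = 0.0124). These shares of receptors called lie near or below those of all genes. Pf4, a ligand under another symbol, rose in hypoxic BV2 monocultures (log2 change 1.04, edgeR adjusted p = 1.48e-06).

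Regulators of the NF-kB pathway rose in hypoxic GL261 together with Cxcl10. Of 10 such genes 8 rose in monoculture, beside 44.6% of all genes called, and 10 in co-culture, beside 52.4%. Tnfaip3, a feedback inhibitor, was at 9.96 and 6.93 CPM in normoxic and 190.4 and 90.6 CPM in hypoxic monocultures (log2 change 4.05 ± 0.47 SE, edgeR adjusted p = 6.13e-05), and Nfkbia, the inhibitor IkB alpha, rose by 2.40 (edgeR adjusted p = 1.01e-05). The list's median log2 fold change was 1.85 in GL261 monocultures, beside -0.03 over all tested genes. In BV2 6 of 10 rose and 1, Nfkb1, fell in monoculture as in co-culture, near the 61.9% and 67.3% of all genes called, with a median of 0.48 in monoculture beside 0 over all genes. In BMDM 2 of 10 rose in monoculture and 5 in co-culture, beside 23.9% and 34.8%. With panobinostat Nfkbia (log2 change -0.98, edgeR adjusted p = 0.0466) and Nfkb1 (log2 change -0.88, edgeR adjusted p = 0.0291) fell in BV2, and 0 of 10 were called in BMDM in edgeR. Of the 6 inducing cytokines 2 could be tested in BV2 and 4 in BMDM of the first experiment, and Il1b rose in hypoxic BV2 monocultures (log2 change 1.88, edgeR adjusted p = 0.000849) and Il6 in hypoxic BMDM co-cultures (log2 change 3.79, edgeR adjusted p = 0.0469).

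The median log2 fold change over tested ligand genes was 0.02 in BV2 monocultures and 0 in BMDM monocultures, beside 0 and 0.03 over all tested genes. In GL261 monocultures it was 1.98 beside -0.03. With contact in normoxia it was 0.88 in BV2 and 1.54 in BMDM, beside -0.02 and 0.02. With contact in hypoxia it was 0.56 in BV2 and 0.45 in BMDM, beside 0.00 and 0.01. In GL261 the contact median was 0.09 in normoxia and -0.00387 in hypoxia, beside -0.000924 and -0.00285. These medians run over few genes, and some entered the tests through groups where they were high, such as Cxcl1 in hypoxic GL261. The 1.98 is the change of Ccl7 (edgeR adjusted p = 0.207) and the 1.54 that of Ccl4 (edgeR adjusted p = 0.0640), neither of them called. The medians are therefore no test of the ligand genes as a set. Of the 14 minor members 6 (Ccl11, Ccl21a, Ccl21b, Ccl26, Ccl27b and Xcl1) had no count in any library, and 8 (Ccl1, Ccl8, Ccl19, Ccl20, Ccl28, Cxcl13, Cxcl15 and Cxcl17) had counts in some. Ccl19, Ccl21a, Ccl21b and Ccl27b share much of their sequence with near-identical copies, so a count of 0 does not show that they are silent.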

How the data were processed

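Poly(A) RNA was sequenced in 38 libraries. The deposited tables give raw counts per gene (Ensembl identifiers, mm10), made by the authors with Trimmomatic 0.36, STAR 2.6, Picard 2.17.1 and HTSeq 0.9.1 among their tools, per the submitters' processing notes, which state neither role nor order. Groups follow the titles in the labels. Genes were named with GENCODE M21, which matched 55141 of 55487. Each cell type of each table was fitted in edgeR 4.0.16 (R 4.3.3; trimmed-mean scaling, factors 0.887 to 1.13; filterByExpr with a minimum count of 10 and total of 15; quasi-likelihood F test; Benjamini-Hochberg), and fits over both cell types of a table gave the differences between cell types. There were 24 comparisons. Library totals of 9634700 to 27238900 counts set the floor of 3 counts, and floors and exact intervals cover counting error alone. None of 22 replicate pairs was identical, and the lowest chi-square per degree of freedom was 6.70.

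Partner RNA was the median ratio over genes of at least 20 CPM in the partner and at least 100-fold higher there. Flags for partner-high genes used 0.5 CPM added to both sides. Same-numbered libraries deviated together in the second experiment (mean correlation of deviations from group means 0.302 in BV2, 0.154 to 0.389, and 0.446 in BMDM, 0.336 to 0.593), so the block is given there. This pairing comes from the data, since the labels do not state it. Named members had a mean of at least 5 CPM in a group or a call. The members and lists were chosen with earlier results of these data known. Scripts were tested on simulated counts. Alternatives were DESeq2 1.42.0, its size factors, no filter, the replicate block, partner-high genes left out, and each library left out, where a lone library is assumed to vary like the other groups. The marker lists for neutrophils, dendritic, T and NK, B and endothelial cells were summed as well: their highest sums were 140.4, 17.3, 2.58, 0.844 and 85.6 CPM in any library.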

Additional observations from a re-analysis of the deposited data

Results flagged for a closer look

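A difference between groups under the same contrast marked 6 results. The hypoxia effect on Cxcl16 in BV2 was lower in co-culture than in monoculture, with a log2 difference of -3.04. Between BV2 and GL261 monocultures the log2 difference of the hypoxia effect, BV2 minus GL261, was -5.21 for Ccl2, -4.37 for Cxcl10, -4.71 for Cx3cl1, 7.12 for Cxcl2 and 2.63 for Cxcl16. Cxcl2 had no count in normoxic BV2, so the size of its difference depends on the small count the fit adds and is no bound. The libraries on which the calls of Cxcl16, Cxcl2 and Cx3cl1 depend are named with those results above. No group holds more than 3 libraries, so single libraries could not be tested as outliers.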

How the results depend on the processing

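No value of a ligand gene changed sign with its call under any alternative run. Single-gene results other than leave-one-out kept their side of the threshold in 1655 cases, gained a call in 136 and lost one in 17. A further 2 cases were classed apart, as moved. Scaling by DESeq2 size factors kept every count of calls within 1.5 times. DESeq2 itself called 4 ligand genes in BV2 monocultures with hypoxia, 4 and 3 in BMDM with contact in normoxia and hypoxia, 6 and 3 in BMDM with hypoxia in DMSO and with panobinostat, and 1 and 2 for the differences between BV2 and BMDM in hypoxia and panobinostat effect. Without a filter on low counts the calls were 10 in BMDM monocultures with hypoxia, 14 and 9 in BMDM with contact in normoxia and hypoxia, 14 and 10 in BMDM with hypoxia in DMSO and with panobinostat, 4 in BV2 with panobinostat, 4 in hypoxic GL261 with contact, 3 and 4 for the difference of the hypoxia effect between cultures in BV2 and BMDM, and 9 and 4 for the differences between BV2 and BMDM in hypoxia and panobinostat effect; the cause was not tested. With the replicate block the calls were 5 and 4 in BV2 with hypoxia in DMSO and with panobinostat, 2 and 3 in BMDM with hypoxia in DMSO and with panobinostat, 2 and 3 in BMDM with contact in normoxia and hypoxia, and 2 for the difference between cultures in BV2. Over all 14806 genes of BMDM the block called 402 higher and 30 lower with contact in normoxia, and 625 and 433 in hypoxia. For the difference between cultures in BV2 it called 241 higher and 226 lower of 14432. Where no share over all genes is given for a setting, as without the filter, its counts are not shown to be particular to ligand genes. In the first experiment the labels share numbers but the pairs did not all correlate (lowest r -0.0807 in BV2, 0.0433 in GL261 and -0.00185 in BMDM), so the block there is a hint from the data. With partner-high genes left out, which removes Cxcl10 from BV2 and BMDM and Ccl3 and Ccl9 from GL261, the calls with contact were 2 in hypoxic BV2, and 0 in GL261 and in BMDM at both oxygen levels. Without both BMDM co-culture libraries of number 2, chosen after seeing the data, the calls with contact were 3 in normoxia and 3 in hypoxia. The partner share of co-cultured GL261 in hypoxia was 0.241%, 0.2997% with co-cultured BV2 as reference and 0.276% with a 30-fold criterion.

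Leaving out 1 library at a time gave these lowest and highest counts of calls. Shares over all genes are not given for these fits, so changes in the counts are not shown to be particular to ligand genes. With hypoxia they were 5 to 5 and 6 to 8 in BV2 monocultures and co-cultures, 1 to 7 and 2 to 6 in GL261, and 1 to 2 and 5 to 10 in BMDM. With contact in normoxia and hypoxia they were 1 to 7 and 3 to 4 in BV2, 0 to 2 and 0 to 1 in GL261, and 0 to 3 and 0 to 4 in BMDM. The difference of the hypoxia effect between cultures gave 0 to 2 in BV2 and 0 in the other cell types. In the second experiment hypoxia gave 2 to 4 in BV2 and 0 to 2 in BMDM, and panobinostat 1 to 3 in BV2 and 0 in BMDM. Between BV2 and GL261 the counts were 12 to 14 in normoxia and 2 to 5 for the hypoxia effect. Between BV2 and BMDM they were 7 to 17 in normoxia, 0 to 3 for the hypoxia effect and 0 to 1 for the panobinostat effect. With 2 libraries in most groups, members under about 1 CPM rest on few counts, and a ligand gene that was not called is not shown to be unchanged.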

Other observations

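Pf4, a chemokine whose symbol lies outside the rule, was at 22.0 and 22.4 CPM in normoxic and 45.3 and 46.1 CPM in hypoxic BV2 monocultures. In the BMDM of the second experiment Pf4 was at 1968 and 61.0 CPM in normoxia with DMSO, 418 and 59.5 CPM in hypoxia with DMSO and 40.0 and 36.1 CPM with panobinostat, so replicate 1 was far above replicate 2 in normoxia. In BV2 with panobinostat the neutrophil chemokine receptor Cxcr2 was at 4.10 and 4.82 CPM against 0.236 and 0.373 CPM in hypoxia with DMSO (log2 change 3.83 ± 0.53 SE, edgeR adjusted p = 0.00338). Ccrl2 was at 8.33, 8.45 and 4.43 CPM in normoxic and 163, 90.1 and 161 CPM in hypoxic co-cultured BMDM (log2 change 4.26 ± 0.34 SE, edgeR adjusted p = 1.46e-05), and all 3 hypoxic libraries were above all normoxic ones.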
